A study of Mus musculus with 9 samples.

Results

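The genes described here are 10 early response genes: the EGR transcription factors Egr1, Egr2 and Egr3, the NR4A nuclear receptors Nr4a1, Nr4a2 and Nr4a3, the immediate early response genes Ier2 and Ier3, and the Krüppel-like factors Klf2 and Klf6. They were chosen by symbol from the 20778 gene symbols of one deposited expression table, and all 10 had an entry and entered the 13773 genes tested. Bulk RNA was sequenced in 9 libraries, with 3 each from 3D bioink, 2D culture and tumours. GL261 is a mouse glioblastoma line, used here with an mCherry label. The 3D bioink group was a penta-culture in a fibrin gel, in which GL261 was mixed with primary astrocytes, microglia, pericytes and endothelial cells from brains of male C57BL/6 mice aged 6 to 10 weeks. GL261 was seeded at 1000000 cells per ml. The 2D culture group held the same penta-culture in a dish. The tumour group consisted of whole tumours that grew for 14 days after 50000 GL261 cells were placed in the striatum of immunocompetent male C57BL/6 mice aged 7 weeks, with 5 mice named in the protocol. All 3 groups thus share one tumour line and one mouse strain. Bead selection took microglia by CD11b, endothelial cells by CD31 and pericytes by AN2 with CD144, while astrocytes were whatever remained unselected. Of the 3 groups, only the 3D bioink has a digestion step on record, in which the gel was treated for 3 h with 600 U per ml of collagenase II. Because no other group has this step on record, digestion and culture format cannot be told apart in any comparison with 3D bioink.

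Immediate early genes are switched on within minutes of growth factors, calcium signals, stress or mechanical handling, without new protein synthesis. Serum response factor (SRF) with its ternary complex partners, CREB bound to cyclic AMP response elements (CRE), and MEF2 factors are the textbook routes from a signal to these genes, and many of their transcripts decay quickly. In the brain, EGR and NR4A transcripts are widely used as marks of recent neuronal activity, and in tissue samples early genes are also known to rise while cells are being dissociated.

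The promoters of the 3 NR4A genes and of Egr2 are shown as the NR4A family and the 1 EGR gene with a window used here. Sequences are from RefSeq (GRCm38.p6, 5′ to 3′ on the strand of the gene), and capitals mark each CRE half-site, TGACG or its complement. RefSeq windows were matched for 7 of the 10 genes, namely Egr2, Nr4a1, Nr4a2, Nr4a3, Ier3, Klf2 and Klf6. The Egr2 stretch is chr10:67537619-67537868 on the plus strand, for the third of its 5 annotated starts. The Nr4a1 stretch is chr15:101266596-101266845 on the plus strand. Both lie inside the GENCODE span of their gene, between exons. The Nr4a2 stretch is chr2:57124004-57124253 on the minus strand. The Nr4a3 stretch is chr4:48045055-48045152 on the plus strand, shortened to 98 bases because GENCODE places an exon over the other 152 bases of its window.
Egr2: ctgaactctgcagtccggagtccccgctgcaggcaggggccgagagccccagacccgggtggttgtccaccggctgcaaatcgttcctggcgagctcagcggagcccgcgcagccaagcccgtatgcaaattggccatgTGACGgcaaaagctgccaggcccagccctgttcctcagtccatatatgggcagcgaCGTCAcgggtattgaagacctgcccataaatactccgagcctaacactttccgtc
Nr4a1: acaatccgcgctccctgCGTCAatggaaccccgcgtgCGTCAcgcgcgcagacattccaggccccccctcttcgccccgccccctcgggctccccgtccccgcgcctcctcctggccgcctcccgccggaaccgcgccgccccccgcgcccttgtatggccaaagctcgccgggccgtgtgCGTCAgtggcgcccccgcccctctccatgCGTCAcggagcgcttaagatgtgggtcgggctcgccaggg
Nr4a2: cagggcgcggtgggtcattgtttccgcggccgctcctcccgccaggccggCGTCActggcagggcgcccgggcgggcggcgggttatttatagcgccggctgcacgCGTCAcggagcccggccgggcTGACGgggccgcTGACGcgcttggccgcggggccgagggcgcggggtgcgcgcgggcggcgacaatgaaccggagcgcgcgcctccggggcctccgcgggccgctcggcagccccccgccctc
Nr4a3: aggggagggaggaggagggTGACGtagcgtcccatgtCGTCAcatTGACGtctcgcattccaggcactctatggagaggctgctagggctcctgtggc
In the 250 bases before the start, Nr4a1, Nr4a2 and Nr4a3 each held 4 CRE half-sites, of which 3 lie in the printed stretch of Nr4a3. Of all 32817 promoter windows of this length, 17.7% held at least 1 half-site and 0.137% (45 windows) held at least 4. Egr2 held 2 in the window shown and none in those of its first 2 starts, Klf2 held 1, and Ier3 and Klf6 held none. The complete element TGACGTCA was in none of the 7 genes' windows and in 1.55% of all windows. A CArG box, the sequence bound by SRF, was found in 4 of the 5 Egr2 windows, including the one shown, and in 1.47% of all windows. Egr2 windows 3, 4 and 5 overlap and hold the same CArG box, so these matches are not independent. The EGR binding sequence GCGGGGGCG was found once each in Nr4a1 and Klf2, on either strand, and in 2.57% of all windows. The NR4A binding sequence AAAGGTCA was in none of the 7 genes' windows and in 1.34% of all. Both strands were searched, and no 2 matches in a plotted window overlapped. These are matches of letters and say nothing about binding.

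**Figure D1:**
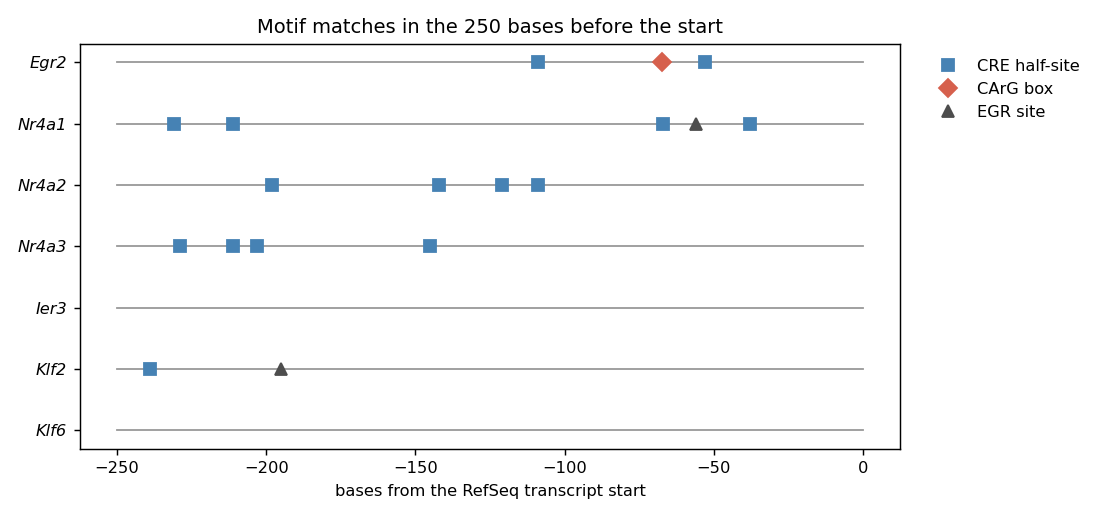
Motif matches in the 250 bases before the RefSeq transcript start of 7 early genes (x axis: bases from the start; squares: CRE half-sites; diamond: CArG box; triangles: EGR site). The 3 NR4A genes carry 4 half-sites each, Klf2 carries 1, and Ier3 and Klf6 carry no match.

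All 10 genes were higher in 3D bioink than in 2D culture, and all 10 were lower in 2D culture than in tumours. Between 3D bioink and tumours the genes divided. Klf2 and Klf6 were higher in 3D bioink, Egr1, Egr2, Ier2 and Ier3 were lower, and Egr3 and the 3 NR4A genes did not pass the test. Calls are limma's on log2(normalized count + 1), at an adjusted p under 0.05 over all genes tested. Of all genes tested, 27% were called higher and 32.2% lower in 3D bioink than in 2D culture. A share of 27.3% was called higher and 27% lower in 2D culture than in tumours. In 3D bioink against tumours, 27.1% of genes were called higher and 37.3% lower. The median log2 fold change of the 10 genes was 3.09 for 3D bioink against 2D culture, against -0.02 over all genes tested. It was -3.06 for 2D culture against tumours, against 0.01 over all genes, and -0.14 for 3D bioink against tumours, against -0.11 over all genes. The comparisons share libraries, so that the 3 counts are not independent of each other.

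**Figure D2:**
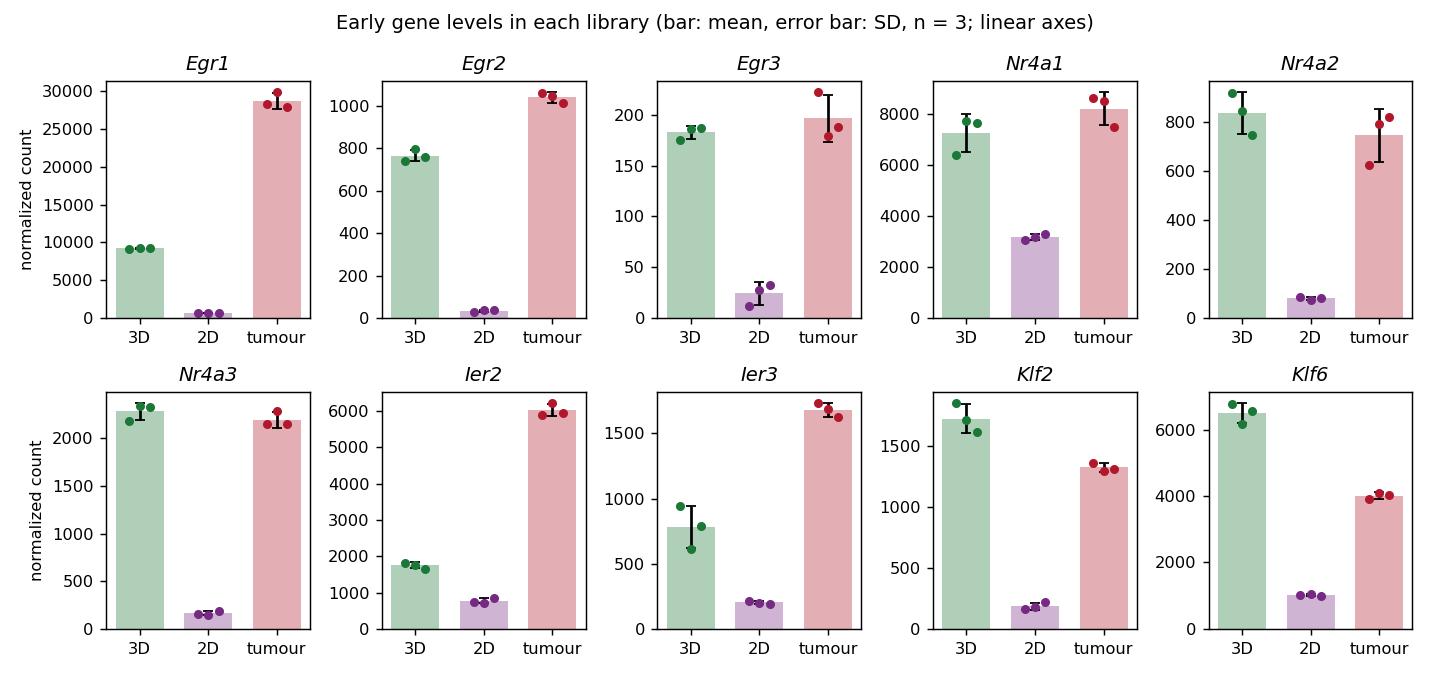
Normalized counts of the 10 early genes in each library (y axes linear and starting at 0; points: libraries; bars: mean; error bars: SD, n = 3 per group). For each gene every 2D culture library lies below every 3D bioink and every tumour library; Klf2 and Klf6 are highest in 3D bioink.

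The table's scaling bears on the smaller of these differences. The deposited values give 5132 genes lower and 3737 higher in 3D bioink than in tumours. The split becomes 4229 lower and 4435 higher under quantile normalization, 4293 lower and 4434 higher with equal upper quartiles, and 3825 lower and 4886 higher with equal totals. For 3D bioink against 2D culture, the deposited values give 3713 genes higher and 4435 lower, and equal totals give 4710 higher and 3437 lower. Equal totals move the median of all genes for 3D bioink against tumours to 0.14, so changes against tumours are also given below relative to the median of -0.11. Read depth is unknown, and the deposited values summed to 13548461 to 13683978 in 3D bioink, 15572800 to 15711632 in 2D culture and 16320090 to 16388074 in tumours. The first 3D bioink library stood apart, with a limma array weight of 0.236, against 0.688 to 4.96 in the other 8 libraries. It held 67 values of 1, against 367 to 580 in the others. Its 15214 genes above 0 compare with 16216 and 16310 in the rest of its group, and with 15041 to 15470 in 2D culture and tumours. Whether it was sequenced less deeply was not tested. Without the first 3D bioink library, the counts of the 10 genes were the same in all 3 comparisons, with 2 higher and 4 lower against tumours.

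The EGR genes encode zinc finger transcription factors that bind a GC-rich sequence, and Egr1 is the member most used as a readout of recent signalling. Egr1 lies on chromosome 18. It had 9095, 9285 and 9249 normalized counts in 3D bioink, 691, 640 and 747 in 2D culture, and 28303, 29805 and 27852 in tumours. The 3 groups did not overlap, and 3D bioink was in the middle. Egr1 was 3.11-fold lower in 3D bioink than in tumours (log2 fold change -1.64, SE 0.059, limma adjusted p = 1.78e-08), or -1.52 relative to the median gene. In 2D culture it was 41.4-fold lower than in tumours (log2 fold change -5.37, adjusted p = 9.48e-12 by limma), which made it the member with the largest change in that comparison. It was 13.3-fold higher in 3D bioink than in 2D culture (log2 fold change 3.73, adjusted p = 2.37e-10 by limma).

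Egr2, a factor best known for hindbrain patterning and myelination by Schwann cells, lies on chromosome 10 from 67535475 to 67542188 on the plus strand (GRCm38). Its normalized counts were 741, 794 and 761 in 3D bioink, 29, 38 and 37 in 2D culture, and 1058, 1047 and 1012 in tumours. The groups did not overlap. Egr2 had the largest difference between the cultures among the 10 genes, 21.6-fold higher in 3D bioink than in 2D culture (log2 fold change 4.43, SE 0.12, limma adjusted p = 6.79e-09), and was 29.4-fold lower in 2D culture than in tumours (limma adjusted p = 1.23e-09). Against tumours, 3D bioink was lower by a small margin (log2 fold change -0.44, 95% interval -0.72 to -0.17, limma adjusted p = 0.0102), or -0.33 relative to the median gene. That call was lost with quantile normalization (-0.27, adjusted p = 0.0727), equal upper quartiles (-0.28, adjusted p = 0.0731) and equal totals (-0.18, adjusted p = 0.233, all by limma).

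Egr3, a relative induced by the same stimuli in neurons and lymphocytes, lies on chromosome 14 from 70077203 to 70082614 on the plus strand. It was the least abundant of the 10 genes. It had 175, 186 and 187 normalized counts in 3D bioink, 12, 28 and 33 in 2D culture, and 222, 179 and 188 in tumours. The 3D bioink and tumour libraries overlapped, and all 2D culture libraries were below both. Egr3 was higher in 3D bioink than in 2D culture (log2 fold change 2.97, SE 0.33, limma adjusted p = 3.79e-05) and lower in 2D culture than in tumours (log2 fold change -3.07, limma adjusted p = 3.01e-05). Between 3D bioink and tumours its log2 fold change was -0.10, with a 95% interval of -0.84 to 0.65 and a limma adjusted p of 0.807. Its sign turned with quantile normalization (0.15), equal upper quartiles (0.06) and equal totals (0.16), none of them called.

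The NR4A genes encode orphan nuclear receptors that act without a known natural ligand and are controlled mainly by how much of them is made. Nr4a1 (Nur77) lies on chromosome 15 from 101254269 to 101274795 on the plus strand, Nr4a2 (Nurr1), which midbrain dopamine neurons need, on chromosome 2 from 57106830 to 57124003 on the minus strand, and Nr4a3 (Nor1) on chromosome 4 from 48045153 to 48086447 on the plus strand. Nr4a1 had 6403, 7736 and 7643 normalized counts in 3D bioink, 3079, 3161 and 3315 in 2D culture, and 8639, 8503 and 7467 in tumours. Its 2D culture libraries were below all others, and the first 3D bioink library was below the rest of its group. Nr4a1 was 2.27-fold higher in 3D bioink than in 2D culture (log2 fold change 1.18, SE 0.083, limma adjusted p = 1.63e-06) and 2.57-fold lower in 2D culture than in tumours (log2 fold change -1.36, limma adjusted p = 5.00e-07), the smallest change against tumours among the 10 genes in 2D culture.

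Nr4a2 had 918, 847 and 750 normalized counts in 3D bioink, 85, 74 and 84 in 2D culture, and 624, 794 and 822 in tumours. Nr4a3 had 2178, 2336 and 2325 in 3D bioink, 153, 149 and 188 in 2D culture, and 2144, 2289 and 2146 in tumours. For both genes the 3D bioink and tumour libraries overlapped, and the 2D culture libraries were far below any other. Nr4a2 was higher in 3D bioink than in 2D culture by 3.35 on the log2 scale (SE 0.13, limma adjusted p = 5.59e-08), and Nr4a3 by 3.80 (SE 0.092, limma adjusted p = 3.15e-09). In 2D culture against tumours the log2 fold change was -3.18 for Nr4a2 (limma adjusted p = 3.95e-08) and -3.75 for Nr4a3, or 13.4-fold lower (limma adjusted p = 1.08e-09).

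None of the 3 NR4A genes was called by limma between 3D bioink and tumours, and none had an unadjusted p under 0.05. The log2 fold change was -0.18 for Nr4a1 (95% interval -0.36 to 0.01, limma adjusted p = 0.0856), 0.17 for Nr4a2 (-0.13 to 0.47, adjusted p = 0.286) and 0.06 for Nr4a3 (-0.15 to 0.26, adjusted p = 0.615). Relative to the median gene these were -0.06, 0.29 and 0.17. A missed threshold does not show equal levels, and the calls moved with the scaling. Quantile normalization called Nr4a1 (0.21, limma adjusted p = 0.0438), Nr4a2 (0.35, adjusted p = 0.0483) and Nr4a3 (0.24, adjusted p = 0.0409) higher in 3D bioink, and equal totals called Nr4a2 (0.43) and Nr4a3 (0.32) higher but not Nr4a1 (0.08). Without the third tumour library Nr4a1 was called lower in 3D bioink (-0.24, limma adjusted p = 0.0337). In absolute size, every one of these values stayed below 0.5 on the log2 scale.

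Ier2 and Ier3 are small early genes. Ier2 encodes a nuclear protein of the early response, and Ier3 (IEX-1) a stress-inducible regulator of cell survival. Ier2 lies on chromosome 8 from 84661331 to 84662852 on the minus strand, and Ier3 on chromosome 17 from 35821684 to 35822923 on the plus strand. Ier2 had 1825, 1772 and 1658 normalized counts in 3D bioink, 742, 724 and 860 in 2D culture, and 5905, 6223 and 5960 in tumours. Tumours stood well above both cultures, with no overlap between groups. Ier2 showed the largest deficit of 3D bioink against tumours among the 10 genes, 3.44-fold lower (log2 fold change -1.78, limma adjusted p = 4.17e-08), or -1.67 relative to the median gene. It was 7.79-fold lower in 2D culture than in tumours (limma adjusted p = 1.08e-09) and 2.26-fold higher in 3D bioink than in 2D culture (limma adjusted p = 7.06e-07).

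Ier3 had 940, 616 and 786 normalized counts in 3D bioink, 218, 199 and 192 in 2D culture, and 1730, 1687 and 1625 in tumours. The groups were again separate, although the 3D bioink libraries were widely spread, with 781 ± 162 as mean and SD (n = 3). Ier3 was lower in 3D bioink than in tumours (log2 fold change -1.13, SE 0.14, limma adjusted p = 5.53e-05), or -1.01 relative to the median gene. It was also lower in 2D culture than in tumours (log2 fold change -3.04, limma adjusted p = 6.03e-08) and higher in 3D bioink than in 2D culture (1.92, limma adjusted p = 1.77e-06).

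Klf2 and Klf6 were the only 2 of the 10 genes called higher in 3D bioink than in tumours with the deposited scaling. Klf2, known in endothelial cells as the flow-induced factor that maintains vessel quiescence, lies on chromosome 8 from 72319033 to 72321656 on the plus strand. It had 1853, 1710 and 1614 normalized counts in 3D bioink, 162, 176 and 220 in 2D culture, and 1365, 1296 and 1314 in tumours. Every 3D bioink library was above every tumour, and every 2D culture library was far below both. Klf2 was 1.30-fold higher in 3D bioink than in tumours (log2 fold change 0.38, SE 0.11, limma adjusted p = 0.0133), or 0.49 relative to the median gene. It was lower in 2D culture than in tumours (log2 fold change -2.84, limma adjusted p = 2.37e-08) and higher in 3D bioink than in 2D culture (3.22, limma adjusted p = 2.65e-08).

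Klf6, a widely expressed zinc finger factor induced by injury and growth signals, lies on chromosome 13 from 5861482 to 5870394 on the plus strand. It had 6761, 6171 and 6568 normalized counts in 3D bioink, 1033, 1045 and 984 in 2D culture, and 3919, 4103 and 4024 in tumours. The 3 groups were far apart compared with the spread inside each. Klf6 was 1.62-fold higher in 3D bioink than in tumours (log2 fold change 0.69, SE 0.052, limma adjusted p = 2.02e-06), or 0.81 relative to the median gene, and it was 6.36-fold higher in 3D bioink than in 2D culture (limma adjusted p = 7.12e-10). It was 3.93-fold lower in 2D culture than in tumours (limma adjusted p = 1.61e-09).

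**Figure D3:**
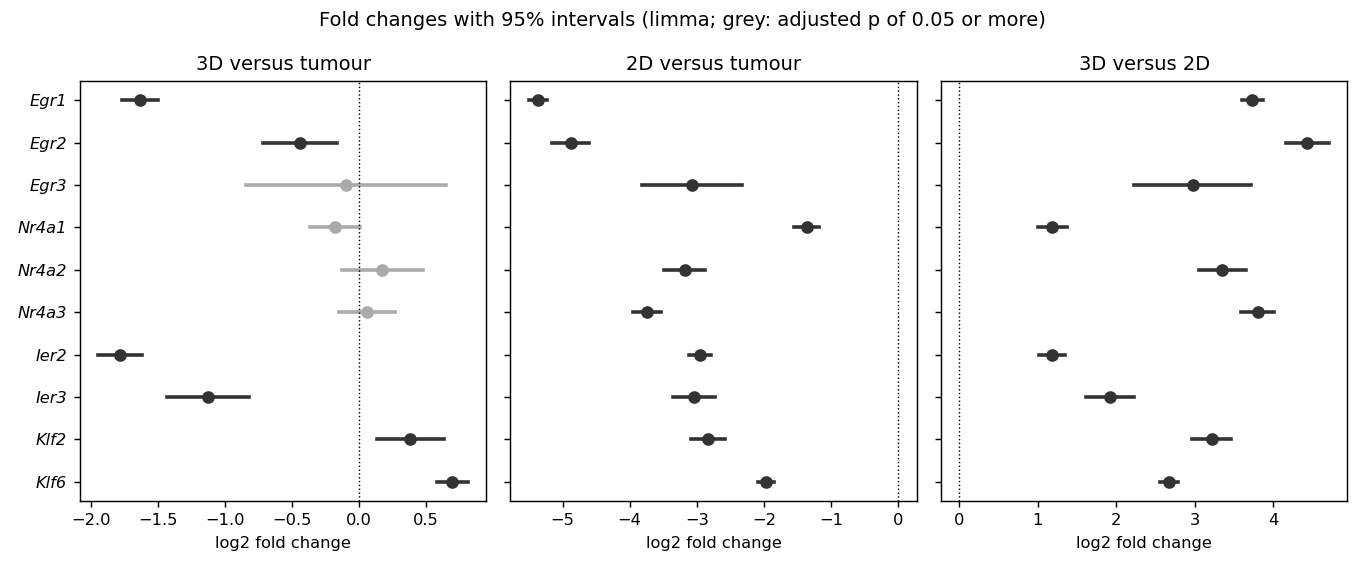
Log2 fold changes of the 10 early genes with 95% intervals from limma in the 3 comparisons (x axis: log2 fold change of the first-named over the second-named group; grey: adjusted p of 0.05 or more; the x scales differ). Against tumours, 3D bioink ranges from -1.78 for Ier2 to 0.69 for Klf6, while all 10 genes lie below 0 in 2D culture.

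To set the 10 genes on one scale, each 3D bioink library was placed between the mean of 2D culture at 0 and the mean of tumours at 1, on the log2 scale. Ier2 lay lowest with a mean position of 0.398, followed by Ier3 at 0.630 and Egr1 at 0.695. Nr4a1 stood at 0.869, Egr2 at 0.910 and Egr3 at 0.968. Nr4a3 at 1.01, Nr4a2 at 1.05, Klf2 at 1.13 and Klf6 at 1.35 lay past the tumour mean. The gap in position between libraries was wide for Nr4a1 (0.740, 0.940 and 0.927) and Ier3 (0.725, 0.525 and 0.640), and narrow for Egr1 (0.692, 0.697 and 0.696). The 3 EGR genes therefore did not share one position, whereas the 2 IER genes were the lowest pair and the 2 KLF genes the highest. These positions describe the same values as the fold changes and were not tested.

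**Figure D4:**
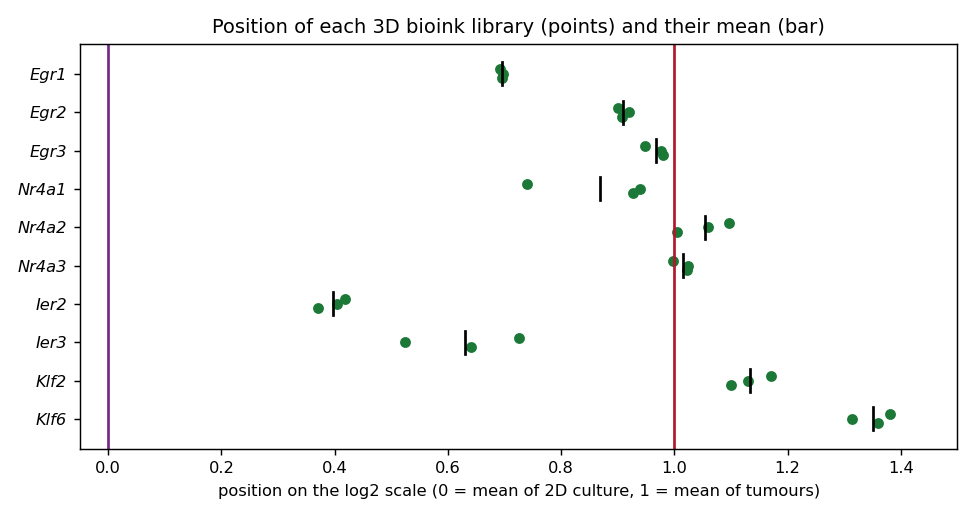
Position of each 3D bioink library between 2D culture and tumours for the 10 early genes (x axis: 0 is the mean of 2D culture and 1 the mean of tumours, log2 scale; points: libraries; bars: mean). Klf2, Klf6 and Nr4a2 lie past 1 in every library, Nr4a2 by as little as 1.005, and Ier2 and Ier3 lie lowest on average.

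The order of levels also changed between groups. Per kilobase of annotated exon, the most abundant genes in 3D bioink were Nr4a1 at 2069 normalized counts and Egr1 at 2054, whose libraries overlapped, ahead of Klf6 at 1480 and Ier2 at 1151. Then came Klf2 at 934, Ier3 at 690, Nr4a3 at 381, Egr2 at 225 and Nr4a2 at 207, with the last pair overlapping, and Egr3 was lowest at 41.5. In 2D culture Nr4a1 led alone at 908 per kilobase, ahead of Ier2 at 509, Klf6 at 232, Ier3 at 179 and Egr1 at 154. Klf2 at 101, Nr4a3 at 27.3, Nr4a2 at 20.0, Egr2 at 10.2 and Egr3 at 5.52 followed. In tumours Egr1 led at 6390 per kilobase, ahead of Ier2 at 3961, Nr4a1 at 2338 and Ier3 at 1486. Klf6 had 914, Klf2 717, Nr4a3 366, Egr2 306, Nr4a2 184 and Egr3 44.6 in tumours. Neighbours in these orders did not overlap in 2D culture or in tumours. Egr1 was thus first in tumours, in the leading pair in 3D bioink and behind 4 of the other genes in 2D culture.

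Each group is a mixture of cells, and in bulk RNA fewer cells of a type and less RNA per cell cannot be told apart. Summed normalized counts of 10 microglia and macrophage markers, among them Ptprc, Csf1r and Aif1, were 445 to 505 in 3D bioink, 228 to 263 in 2D culture and 27293 to 29693 in tumours, with C1qa listed at 0 in 2D culture only. Between 3D bioink and tumours 9 of these 10 markers were called lower and none higher. Markers of the microglia named in the labels were thus low in both cultures. Sums of 5 fibroblast markers were 8510 to 9228 in 3D bioink, 5676 to 5860 in 2D culture and 912 to 928 in tumours. Col1a1 made up most of each, with 5280 to 5408 in 2D culture alone, where Dcn had 3, 4 and 0, against 1, 0 and 11 in tumours. Of the 5, 4 were called higher and none lower in 3D bioink than in tumours, and 2 higher and 1 lower in 2D culture than in tumours. The sums of 6 pericyte markers were 2274 to 2441, 866 to 877 and 1447 to 1550. Cspg4 made up most of each. Of 4 pericyte markers tested, 3 were higher and 0 lower in 3D bioink than in tumours, and 1 higher and 3 lower in 2D culture than in tumours. Pdgfrb had 153, 125 and 168 in 2D culture and 95, 46 and 46 in tumours. Kcnj8, a defining pericyte marker, was listed at 0 in 2D culture. It was also low elsewhere, with 3, 0 and 4 in 3D bioink and 12, 0 and 8 in tumours, and was not tested. Endothelial marker sums were 3816 to 6068 in 3D bioink, 4124 to 4548 in 2D culture and 4627 to 4890 in tumours, and astrocyte sums were 4460 to 4774, 4170 to 4483 and 4075 to 4268. These close sums cover members that moved in opposite directions. Of 6 endothelial markers tested, 1 was higher and 2 lower in 3D bioink than in tumours, and 1 higher and 3 lower in 2D culture than in tumours. Cdh5 had 525, 654 and 643 in 3D bioink, 574, 613 and 590 in 2D culture, and 172, 170 and 124 in tumours, and Cldn5 had 20, 19 and 15 in 3D bioink, 8, 2 and 3 in 2D culture, and 147, 145 and 93 in tumours. Of 7 astrocyte markers, 2 were higher and 2 lower in 3D bioink than in tumours, and 2 higher and 3 lower in 2D culture than in tumours, with Gfap at 367, 362 and 395 in 3D bioink, 163, 187 and 149 in 2D culture, and 625, 553 and 603 in tumours. Erg was listed at 0 in 2D culture and tumours. The sums of 6 neuron markers were 308 to 364 in 3D bioink, 62 to 79 in 2D culture and 72 to 143 in tumours, with Rbfox3 listed at 0 in 2D culture and tumours. Syt1 made up most of each sum, with 260, 288 and 319, 52, 61 and 73, and 72, 61 and 137. It was the only 1 of the 6 that was tested. Rbfox3 had 15, 0 and 1 in 3D bioink. Stmn2 went the other way, with 0, 0 and 1 in 3D bioink and 9, 2 and 4 in 2D culture. For 6 T cell markers the sums were 196 to 255, 80 to 97 and 342 to 388. Cd3d made up most of these sums in both cultures. It had 173, 109 and 157 in 3D bioink, 60, 78 and 72 in 2D culture, and 104, 95 and 134 in tumours. Cd2 was listed at 0 in both cultures, against 36, 47 and 47 in tumours. Of the 6, 0 were higher and 3 lower in 3D bioink than in tumours, and 0 higher and 6 lower in 2D culture than in tumours. For 5 neutrophil markers the sums were 72 to 115, 23 to 44 and 785 to 928. Csf3r made up most of the neutrophil sums in tumours, with 868, 743 and 737. Ly6g, S100a8 and S100a9 had at most 5 in any library and were not tested. Cxcr2 had 107, 63 and 66 in 3D bioink and 53, 37 and 64 in tumours, and was not called between them. Oligodendrocyte sums were 4588 to 4970 in 3D bioink, 5860 to 6205 in 2D culture and 1799 to 2093 in tumours, with Mag listed at 0 in both cultures and calls against tumours in both directions (2 higher and 2 lower in 3D bioink, 1 higher and 3 lower in 2D culture). Erythroid sums were 41 to 66, 65 to 74 and 215 to 290. The part of these cell types in the levels of the early genes was not tested.

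Other early genes were set beside the 10. Of 20 early response genes that are not transcription factors, such as phosphatases and RNA-decay factors, 17 were higher and none lower in 3D bioink than in 2D culture (median log2 fold change 1.53). In 2D culture against tumours 18 were lower and none higher (median -2.04), and in 3D bioink against tumours 16 were lower and 1 higher (median -0.95). Btg2, an antiproliferative factor, had 1295, 1277 and 1420 normalized counts in 3D bioink, 190, 253 and 269 in 2D culture, and 2921, 2772 and 2823 in tumours, and fell by 3.59 on the log2 scale in 2D culture against tumours (limma adjusted p = 7.57e-09). Zfp36 (tristetraprolin), which destabilises AU-rich transcripts, was lower in 3D bioink than in tumours (log2 fold change -1.80, limma adjusted p = 3.30e-05) and lower in 2D culture than in tumours (-3.71, limma adjusted p = 2.43e-07). The 1 gene that rose in 3D bioink against tumours was Tiparp, an ADP-ribosyltransferase induced by the aryl hydrocarbon receptor. Tiparp had 6325, 5868 and 6189 normalized counts in 3D bioink, 764, 842 and 721 in 2D culture, and 619, 685 and 734 in tumours, so that only 3D bioink stood out (log2 fold change 3.17 against tumours, limma adjusted p = 2.16e-09). Arc, a synaptic early gene, was higher in 3D bioink than in 2D culture by 4.27 on the log2(value + 1) scale (limma adjusted p = 0.000174), with only 2, 6 and 16 normalized counts in 2D culture.

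Of 10 other early transcription factors and cofactors tested, 8 were higher and 1 lower in 3D bioink than in 2D culture (median 1.23). In 2D culture against tumours 1 was higher and 8 lower (median -1.52), and in 3D bioink against tumours 4 were higher and 5 lower (median -0.34). Klf4, a close relative of Klf2, had 7727, 11380 and 10040 normalized counts in 3D bioink, 1214, 1339 and 1456 in 2D culture, and 4715, 5145 and 5094 in tumours, and it rose by 2.85 on the log2 scale in 3D bioink against 2D culture (limma adjusted p = 1.01e-07). Id1, an inhibitor of basic helix-loop-helix factors, was higher in 3D bioink than in tumours (log2 fold change 2.72, limma adjusted p = 2.54e-07) and also higher in 2D culture than in tumours (1.45, limma adjusted p = 2.04e-05). Nfil3, a leucine zipper repressor, was lower in 3D bioink than in tumours (-1.45, limma adjusted p = 4.23e-07), and Maff, a small MAF protein, was lower in 2D culture than in tumours (-3.14, limma adjusted p = 4.14e-09). This set did not move as one, in that Id1 and Srf went against most of the others. Srf, which encodes serum response factor itself, had 891, 901 and 893 normalized counts in 3D bioink and 1136, 1018 and 1267 in 2D culture, lower in 3D bioink by a log2 fold change of -0.34 (limma adjusted p = 0.00754). That call was lost with quantile normalization, equal upper quartiles and equal totals.

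The AP-1 subunits, which dimerise into the factor that many early signals reach, had a similar count: 7 of 8 higher and none lower in 3D bioink than in 2D culture (median 2.76), none higher and 7 lower in 2D culture than in tumours (median -3.75), and 1 higher and 5 lower in 3D bioink than in tumours (median -0.81). Fos had 11772, 12927 and 12560 normalized counts in 3D bioink, 695, 786 and 754 in 2D culture, and 34450, 34746 and 35210 in tumours. Jun had 20383, 24278 and 23400 in 3D bioink, 4126, 4281 and 4568 in 2D culture, and 44911, 42829 and 39573 in tumours. Both subunits were in the middle in 3D bioink, as Egr1 was. Of all tested genes outside the 10, Fos was the one whose profile over the 9 libraries was most like that of Egr1, with a root mean square difference of 0.158 between row-centred log2 values, followed by Nfkbiz (0.231), a regulator of NF-kappaB target genes, and the complement protease gene C1s1 (0.248). For Nr4a1 the closest were Cited2, a CBP/p300 cofactor (0.088), Gla, the lysosomal alpha-galactosidase (0.098), and Smoc1, a matrix protein (0.100). Cited2 had 2481, 2493 and 2453 normalized counts in 3D bioink, 974, 1012 and 1082 in 2D culture, and 2743, 2660 and 2466 in tumours. Between members, Egr1 and Egr2 differed by 0.505 on the same measure and Egr1 and Nr4a1 by 1.66.

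**Figure D5:**
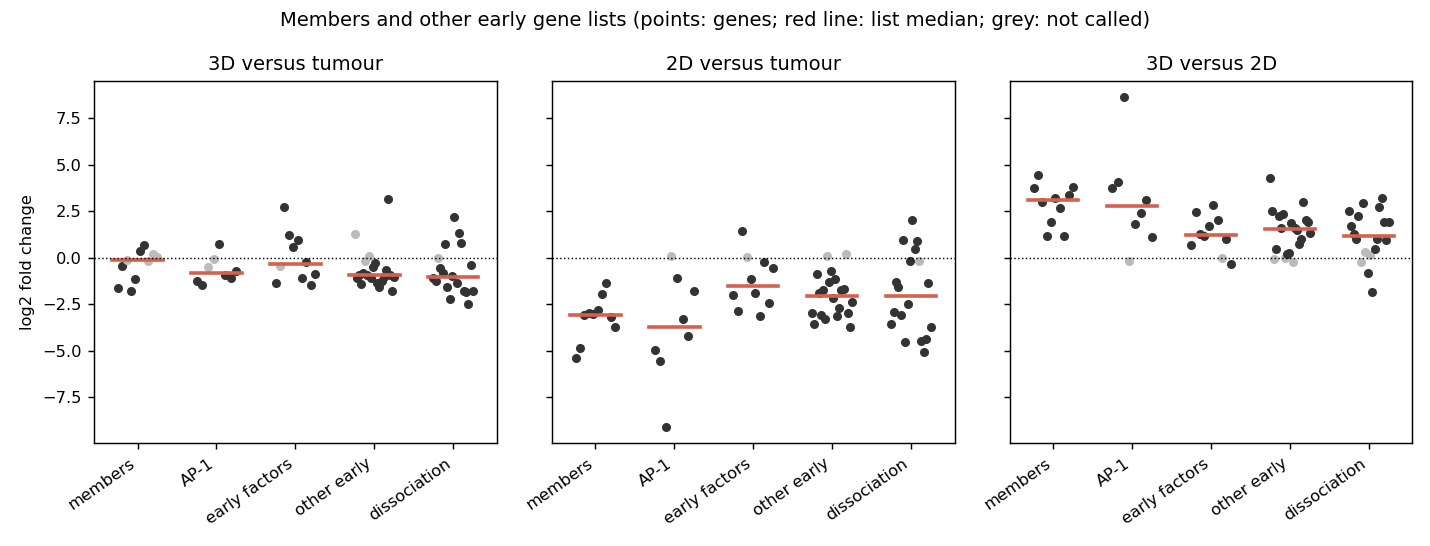
Log2 fold changes of the 10 early genes and 4 other early gene lists in the 3 comparisons (points: genes; red lines: list medians; grey: not called; AP-1: 8 genes, early factors: 10, other early: 20, dissociation: 18). In 2D culture against tumours the list medians are all below 0, from -3.75 for AP-1 to -1.52 for early factors.

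Among 18 genes outside the 10 and AP-1 that are described elsewhere as rising during tissue dissociation, 13 were higher and 2 lower in 3D bioink than in 2D culture (median 1.14). Of these, 4 were higher and 13 lower in 2D culture than in tumours (median -2.04), and 4 were higher and 13 lower in 3D bioink than in tumours (median -1.05). Btg2, Dusp1 and Zfp36 are also in the set of other early genes. Socs3, a feedback inhibitor of cytokine signalling, had 1650, 1987 and 1856 normalized counts in 3D bioink, 479, 421 and 544 in 2D culture, and 10648, 10001 and 9728 in tumours, and fell by 2.47 on the log2 scale in 3D bioink against tumours (limma adjusted p = 3.63e-08). Nfkbiz was 3.22 higher in 3D bioink than in 2D culture on the log2 scale (limma adjusted p = 7.88e-09). Hspe1 was 1 of the 2 genes lower in 3D bioink than in 2D culture (-1.84, limma adjusted p = 4.51e-07). It had 1929, 2160 and 2257 normalized counts in 3D bioink and 8219, 8027 and 6600 in 2D culture. In the comparisons with tumours, Hspb1, a small heat shock protein gene, went against most of the set. It was higher than in tumours in 3D bioink (2.17, limma adjusted p = 0.000766) and in 2D culture (2.02, limma adjusted p = 0.00152). Hspb1 had 166, 91 and 94 normalized counts in 3D bioink, 147, 65 and 107 in 2D culture, and 17, 25 and 33 in tumours. How the tumours were dissociated is not stated in the labels, and the part of digestion was not tested.

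The known partners and upstream factors of the 10 genes changed in both directions. Nab1 and Nab2 encode corepressors that bind EGR proteins. Nab1 had 1025, 1241 and 1005 normalized counts in 3D bioink, 728, 800 and 888 in 2D culture, and 748, 553 and 517 in tumours, and was higher in 3D bioink than in tumours (log2 fold change 0.86, limma adjusted p = 0.000557). Nab2 was lower in 2D culture than in tumours (-0.58, limma adjusted p = 0.000451). Egr4, the fourth EGR gene, fell under the minimum mean of 10, with 25, 30 and 16 normalized counts in 3D bioink, 0, 0 and 0 in 2D culture, and 14, 0 and 3 in tumours. Rxra and Rxrb, which encode the retinoid X receptors that pair with Nr4a1 and Nr4a2, were both lower in 3D bioink than in tumours, by -0.71 for Rxra (limma adjusted p = 0.000325) and -1.05 for Rxrb (limma adjusted p = 1.60e-06). They were also both lower in 2D culture than in tumours, by -0.48 for Rxra and -0.80 for Rxrb (limma adjusted p = 0.00441 and 1.22e-05). Between cultures the log2 fold change of 3D bioink over 2D culture was -0.23 for Rxra, which was not called, and -0.25 for Rxrb (limma adjusted p = 0.0165), a call lost under all 4 other scalings and without the third 3D bioink or the third 2D culture library.

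Of 8 genes for CREB, its coactivators and MEF2 factors, 4 were higher and 2 lower in 3D bioink than in 2D culture, 1 higher and 3 lower in 2D culture than in tumours, and 2 higher and 5 lower in 3D bioink than in tumours. The 1 higher in 2D culture was Crtc1, a call lost without the third 2D culture library or the second or the third tumour library. The 5 lower in 3D bioink became 1 with quantile normalization, equal upper quartiles or equal totals, and 3 with the median of ratios, with the replicate block, and without the second or the third 3D bioink library or the second tumour library. Creb1 had 1043, 734 and 915 normalized counts in 3D bioink, 430, 452 and 445 in 2D culture, and 457, 313 and 385 in tumours, 1.22 higher in 3D bioink than in tumours on the log2 scale (limma adjusted p = 8.23e-05). Mef2a was higher in 3D bioink than in 2D culture (0.93, limma adjusted p = 2.39e-06), and Mef2d was lower in 2D culture than in tumours (-0.79, limma adjusted p = 3.65e-06). Of 5 SRF cofactors, 1 was higher and 1 lower in 3D bioink than in 2D culture, 2 were higher and 2 lower in 2D culture than in tumours, and 1 was higher (Elk4, 0.57, limma adjusted p = 0.000338) and 1 lower (Mkl1, -0.66, limma adjusted p = 1.68e-05) in 3D bioink than in tumours. With quantile normalization, equal upper quartiles or equal totals, 4 of these 5 were higher in 3D bioink than in tumours, and 3 were higher and none lower in 3D bioink than in 2D culture. Leaving out 1 library in turn moved each of these counts of SRF cofactors by at most 1, with 0 to 1 lower and 1 to 2 higher in 3D bioink than in 2D culture, and 1 to 2 higher and 1 to 2 lower in 2D culture than in tumours.

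The ERK5 cascade is the textbook route to Klf2 in endothelial cells. Of its 4 kinase genes, Map3k2 had 2384, 2128 and 2148 normalized counts in 3D bioink, 791, 845 and 909 in 2D culture, and 538, 603 and 584 in tumours, and was higher in 3D bioink than in 2D culture (log2 fold change 1.39, limma adjusted p = 4.49e-07). The other 3 were lower in 3D bioink than in 2D culture, among them Mapk7, the gene for ERK5 itself (-0.45, limma adjusted p = 0.00446). These 3 lower calls became 1 with quantile normalization or equal upper quartiles, and none with equal totals. They became 2 with the median of ratios or without the first 2D culture library. In the remaining comparisons the 4 kinase genes gave 1 higher and 1 lower in 2D culture against tumours, and 1 higher and 2 lower in 3D bioink against tumours. Of 8 other Krüppel-like factors, 5 were higher and 1 lower in 3D bioink than in 2D culture, 2 higher and 2 lower in 2D culture than in tumours, and 5 higher and 1 lower in 3D bioink than in tumours. The 1 lower against tumours was Klf16, a call that held in 7 of the 21 alternatives and was lost in the rest, the 4 other scalings, the replicate block (limma adjusted p = 0.0616) and most fits with 1 library left out among them. Klf9, a glucocorticoid-responsive factor, had 2795, 2166 and 2356 normalized counts in 3D bioink, 361, 492 and 383 in 2D culture, and 428, 513 and 426 in tumours. Its cultures in 3D bioink stood apart from both other groups, with a log2 fold change of 2.41 against tumours (limma adjusted p = 3.57e-07). Klf11, a TGF-beta inducible factor, instead had overlapping levels in 3D bioink and tumours and lower ones in 2D culture, with 740, 657 and 731 in 3D bioink, 110, 96 and 77 in 2D culture, and 721, 844 and 708 in tumours, and was lower in 2D culture than in tumours by a log2 fold change of -3.00 (limma adjusted p = 8.52e-08).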

How the data were processed

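Bulk RNA-seq of 9 libraries was available as 1 table of normalized values. The submitters' processing notes name the build mm10 and the tools RSEM, kallisto, DESeq and DESeq2 1.24.0 without role or order, and strand-specific counting is not given in the sources used here. The deposited value is a score, a normalized count rounded to whole numbers, so depth is unknown, no count model was run, and genes with 0 are listed at 0. Libraries were made from 25 to 75 ng of RNA with 14 PCR cycles, according to the labels. Nothing in the labels ties the 3 libraries of a group to separate mice or cultures, so p-values measure the spread between libraries only, and that spread may be technical.

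Genes with a mean of at least 10 were tested on log2(value + 1) with limma 3.58.1 in R 4.3.3 (1 model over 9 libraries, eBayes with trend, Benjamini-Hochberg adjustment over 13773 genes, threshold 0.05), after a check on simulated data. Fold changes on this scale understate changes of low genes. The 10 genes, the other lists and the naming rule were chosen with earlier results of these data known. In each other list and comparison, the 2 called genes with the largest change and the 1 with the largest opposite change could be named, and for Egr1 and Nr4a1 the 3 genes nearest in profile. Fos and Jun were also named, and Egr4 was named after its values were seen. GENCODE (GRCm38) gave coordinates and exon lengths, and no other annotated gene overlaps any of the 10. Python 3.11.15 searched the motifs.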

Additional observations from a re-analysis of the deposited data

Results flagged for a closer look

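Klf2 and Klf6 moved in opposite directions in the 2 culture formats relative to the tumours. Every 3D bioink library was above every tumour, and every 2D culture library was below every tumour. The comparison of 3D bioink with 2D culture tests only whether the 2 formats differ. Its log2 fold change was 3.22 for Klf2 (limma adjusted p = 2.65e-08) and 2.67 for Klf6 (limma adjusted p = 7.12e-10). All 10 genes passed it, so it cannot test for opposite sides of the tumours. The opposite sides rest on the comparisons with tumours. For 3D bioink these gave 0.38 for Klf2 (limma adjusted p = 0.0133) and 0.69 for Klf6 (limma adjusted p = 2.02e-06). Without the first 3D bioink library, Klf2 was at 0.33 (limma adjusted p = 0.0421). The order held in 3 of 3 libraries of each group for both genes, which restates the library order above and is not separate support. Klf2 came to 1.30-fold above tumours in 3D bioink and Klf6 to 1.62-fold.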

How the results depend on the processing

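Each comparison was recomputed under 21 alternatives: other pseudocounts, filters, scalings, limma settings, a replicate block, and 9 fits that each left out 1 library. All 10 genes kept their call and direction between the 2 cultures, and likewise between 2D culture and tumours, in all 21. For 3D bioink against tumours, the number called higher was 2 with the deposited scaling, 5 with quantile normalization and 4 with equal totals; the cause was not tested. Leaving out 1 library gave 2 higher and 4 to 5 lower. With the replicate block, 6 of the 10 genes were called against tumours (2 higher, 4 lower), 10 in 2D culture against tumours and 10 between cultures, as without it. Libraries of the same number did not deviate together across genes (correlation -0.033 to 0.080). With 3 libraries a group, these values do not decide whether the numbers pair the libraries. Nr4a1 turned to 0.21 with quantile normalization in 3D bioink against tumours, and Klf16, a Krüppel-like factor, turned to 0.0064 with equal totals; the cause was not tested. The other lists and named genes were put through the same alternatives after the data were seen. Low genes such as Egr3 and Arc are limited by their small values.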
